A study of Mus musculus with 2 samples.

Results

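Freshly isolated mouse muscle stem cells, called quiescent in the labels, were described here cell by cell. They were the wells that the deposited well sheet gives as quiescent, holding 500 or more gene counts and 250 or more genes. All 102 such wells of 102 in the sheet were kept, among 456 kept wells of the whole series. The other wells held muscle stem cells grown for 96 h in DMEM with 25 mM glucose (113 wells, high glucose), 5 mM glucose (120 wells, low glucose) or 10 mM galactose (121 wells). Those media also held 1 mM pyruvate, fetal bovine and horse serum, chick embryo extract, bFGF and antibiotics. The labels give no culture step for the freshly isolated cells. Sorting was by FACS into plates of 384 wells. The labels do not state the strain, sex, age or number of mice, nor the sorting gate. Plate 1 held the freshly isolated cells in rows A to F and the high glucose cells in other rows. Plate 2 held the remaining 2 conditions.

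Muscle stem cells lie between the muscle fibre and its basement membrane, where they rest out of the cell cycle in uninjured muscle. Pax7 marks the lineage, Myf5 and Myod1 are transcription factors of the muscle fate, and Myod1 protein is associated with activation. Surface and signalling proteins such as Vcam1, Sdc4, Calcr and Cd34 are used to recognise the resting cell, and Spry1 restrains growth factor signalling in it.

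Each well gave counts from a modified CEL-Seq2 protocol, which copies polyadenylated RNA and tags it with a well barcode and a random tag of 6 bases. CEL-Seq2 reads the 3′ end of a transcript, so levels were not divided by gene length and are given as CPM, the counts scaled to a fixed total of gene counts. The freshly isolated wells held 284109 gene counts in all. A well held between 1549 and 6750 gene counts, with a median of 2536, and between 1016 and 2908 genes, with a median of 1393. The median count per well differed little between the 6 plate rows of 15 to 19 wells each, from 2082.5 in row A to 2850.5 in row F. ERCC spike-ins, synthetic RNAs added to each well, gave 79 to 242 counts per well. Gene counts per spike-in count had a median of 18.3 and ran from 10.3 to 35.6, with row medians from 15.3 in row A to 22.6 in row F. The 102 wells came from 1 library, and cells of 1 library are not replicates. No p-value is therefore given, and intervals are exact Poisson or exact conditional 95% intervals that cover counting error only. Whether repeat reads of a random tag were merged is not stated, and intervals take the counts as independent. The well barcodes of the 102 cells were not used for high glucose wells, but 96 of them also served on plate 2.

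The RNA of these cells was spread over many genes at low counts. Of 21216 genes in the files, 13127 had a count in at least 1 freshly isolated well, 3073 in exactly 1 well, 610 in at least 51 wells and 17 in every well. The 20 leading genes held 13.9% of counts, the 100 leading genes 28.02%, and 502 genes made up 50% of the counts. The leading gene was Gm42418 at 49052 CPM, a long non-coding locus that overlaps ribosomal RNA and is reported as uncertain. Genes annotated as pseudogenes, or with predicted or copy symbols, held 25.8% of counts. The labels do not say how reads that match several loci were counted, so such loci cannot be told apart from their parent genes.

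Chaperones stood among the most abundant nuclear messages. The stress-inducible Hsp70 genes Hspa1b and Hspa1a were at 5695 and 3499 CPM, and the Hsp90 genes Hsp90ab1 and Hsp90aa1 at 3991 and 3474 CPM. Hspa5, the Hsp70 of the endoplasmic reticulum, was at 3879 CPM. Further leaders served housekeeping or redox roles: the elongation factor Eef1a1 (4667 CPM), the nuclear RNA Malat1 (3984), actin Actb (3713), the secreted glutathione peroxidase Gpx3 (3499) and the actin-severing cofilin Cfl1 (3428). Of the mitochondrial genome, mt-Rnr2, mt-Cytb, mt-Nd4 and mt-Co1 lay between 3558 and 6927 CPM. The symbols Gm10925, Gm8355, Gm29216 and Gm15459, also among the 20 leading, were pseudogene loci and uncertain.

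The labelled cell type was checked against its markers. Myod1 (ENSMUSG00000009471) was at 2446 CPM and had a count in 88 of 102 wells. Sdc4, a heparan sulfate co-receptor, was at 2094 CPM in 96 wells, and Erfe, a secreted hormone of iron metabolism, at 1584 CPM in 75 wells. Vcam1 was at 465 CPM in 48 wells, Spry1 at 408 CPM in 50, Myf5 at 394 CPM in 59 and Chrdl2, a secreted BMP antagonist, at 208 CPM in 32. Cd34 was at 134 CPM in 30 wells, Pax7 at 120 CPM in 28 and the calcitonin receptor Calcr at 56.3 CPM in 13. Of the 6 markers Myod1, Sdc4, Vcam1, Erfe, Chrdl2 and Calcr, a well held a median of 4, 80 wells held 3 or more, and 1 well held none.

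At this depth an empty well says little about a scarce gene. If every cell had held Pax7 at the same share of its RNA, 28.4 wells would hold a count by counting error alone, and 28 did. For Cd34 the same expectation was 31.1 wells against 30 found, and for Calcr 14.7 against 13. Absence of these 3 messages from the other wells was thus close to what depth alone gives. With so few counts the number of wells can barely leave this expectation, so an even level is not shown. Vcam1 was different, with 48 wells against 71.4 expected, as was Spry1 with 50 against 66.8. Erfe was found in 75 wells against 99.5 expected, and Myod1 in 88 against 101.6. Those 4 messages were gathered in fewer wells than an even level would give.

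Markers of other cell types ranged from absent to levels above some of the cells' own markers. Of immune markers, 4 of 12 could be looked up. Cd79a, Csf1r and Fcer1g were at 0 and Cd68 had a count in 1 well, which left the list at 3.52 CPM. The tenocyte genes Scx and Mkx were at 0, which allows up to 13.0 CPM each. Endothelial markers summed to 183 CPM, with Cldn5 and Tie1 at 0 and Fabp4 highest at 88.0 CPM, and mature myofibre markers to 73.9 CPM. By list, 6 of 12 myofibre, 5 of 10 fibro-adipogenic, 2 of 5 tenocyte and 3 of 7 glial markers could be looked up. Of 6 erythroid markers none could be. The 3 glial markers summed to 21.1 CPM, with a count in 3 wells. Fibro-adipogenic markers summed to 1091 CPM, with a count in 82 wells. The collagen Col3a1 gave 873 CPM of this, above Vcam1 and Myf5, while Dcn and Clec3b were at 0. Smooth muscle and pericyte markers summed to 637 CPM, with a count in 65 wells, led by Acta2 at 218 CPM, with Cspg4 and Kcnj8 at 0. At least 3 markers of the same other type were found in 9 wells for smooth muscle and pericytes, in 3 for fibro-adipogenic cells and in 1 for endothelium. Notch3 and Rgs5 of the smooth muscle list are also expressed by muscle stem cells.

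Cell-to-cell variation was measured as a Fano factor, the variance over wells divided by that expected if each well drew its counts from the same RNA mixture at its own depth. Counting error alone gives a value near 1. Among 1061 genes with a mean of at least 0.5 counts per well the median was 1.22, and 126 genes (11.9%) reached 2. The 18 spike-in species at the same mean lay between 0.749 and 1.36 with a median of 1.04, and none reached 2 (scaled by the spike-in total). Scaled by gene counts instead, the spike-ins reached up to 3.39 and 4 of 18 passed 2, on a scale on which a well's own RNA content also enters. Of the 126 genes, 86 stayed at or above 2 without each plate row in turn, and 119 without the 3 wells that held the most Hspa1a and Hspa1b. Between genes the plot of Fano factor by mean count separates a small set of stress, chemokine and stem cell genes from a broad base near 1.

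**Figure D1:**
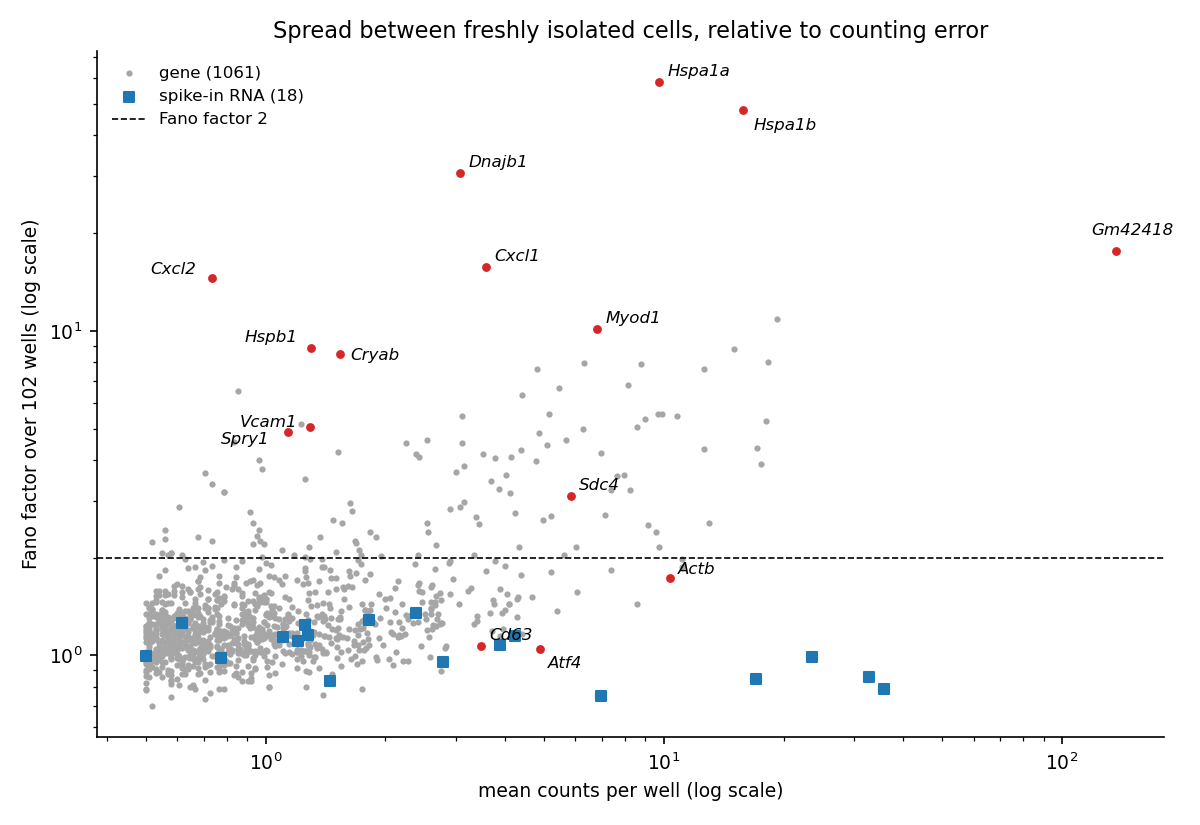
Each grey or red point is a gene in 102 freshly isolated cells and each blue square a spike-in RNA; x is the mean counts per well and y the Fano factor, both on log scales, with a dashed line at 2. Hspa1a, Hspa1b and Dnajb1 lie highest at 58.5, 48.0 and 30.7, while the spike-ins reach at most 1.36.

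The cytosolic heat shock chaperones, which refold proteins under stress, had the highest Fano factor of summed counts among the gene lists with a count, 71.8, a measure that grows with the count. Transcripts of the mitochondrial genome followed at 30.2, with 9 of 12 measured members at 2 or more. By excess coefficient of variation (CV, the spread left after counting error is taken off, over the mean) the heat shock list, at 0.915, lay below the sparse glial (5.48), smooth muscle and pericyte (1.68) and fibro-adipogenic (1.02) lists. Of 20 genes of the list that could be looked up, 17 reached a mean of 0.5 counts per well and 10 of those had a Fano factor of at least 2, against 11.9% of all genes. Hspa1a (ENSMUSG00000091971) ran from 0 to 194 counts per well with a median of 3. Its Fano factor was 58.5, and the excess CV was 2.53. The 10 highest wells held 66.5% of all its counts, while 16 wells held none. Hspa1b ran from 0 to 232 with a median of 7 (Fano factor 48.0). Dnajb1 (ENSMUSG00000005483), the Hsp40 partner of Hsp70, ran from 0 to 85 with a median of 1, was found in 63 wells against 95.04 expected, and left 71.0% of its counts in 10 wells. The small heat shock proteins Hspb1 and Cryab had Fano factors of 8.86 and 8.48, and each was found in 42 wells against 71.6 and 77.2 expected. Hsp90aa1 and Hspa8, present in 102 and 97 wells, varied less, at 5.52 and 4.98. Hsp90ab1 (1.88), Hspe1 (1.52) and Hspa4 (0.911) stayed under 2.

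Upstream sequences of these genes are shown because heat shock factor 1 is known to drive the inducible members through heat shock elements, inverted repeats of GAA. RefSeq promoter windows (build GRCm38.p6, 250 bases before to 50 after the gene start) were searched on both strands for GAANNTTC, printed in capitals. Of 15 list members with a window, 8 held a match, in 9 of 19 windows (47.4%), against 7.86% of all 32851 windows. Hspa1b (chr17:34959189-34959488, minus strand) and Hspa1a (chr17:34972107-34972406, minus strand) were the list's leading members with a window. Hspb1 (chr5:135887669-135887968, plus strand) and Dnajb1 (chr8:83607925-83608224, plus strand) were added after their values were seen.
Hspa1b: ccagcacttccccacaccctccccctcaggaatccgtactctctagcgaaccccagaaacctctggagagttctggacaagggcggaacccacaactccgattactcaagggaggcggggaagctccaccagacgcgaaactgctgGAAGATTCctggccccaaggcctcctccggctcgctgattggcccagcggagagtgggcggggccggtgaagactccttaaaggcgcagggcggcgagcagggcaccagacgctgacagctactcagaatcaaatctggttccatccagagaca
Hspa1a: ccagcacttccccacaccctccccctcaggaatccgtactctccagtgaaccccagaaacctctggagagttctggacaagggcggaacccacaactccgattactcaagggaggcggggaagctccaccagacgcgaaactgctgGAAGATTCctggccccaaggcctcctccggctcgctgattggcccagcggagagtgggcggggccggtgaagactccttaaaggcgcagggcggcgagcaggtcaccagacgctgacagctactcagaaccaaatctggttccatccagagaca
Hspb1: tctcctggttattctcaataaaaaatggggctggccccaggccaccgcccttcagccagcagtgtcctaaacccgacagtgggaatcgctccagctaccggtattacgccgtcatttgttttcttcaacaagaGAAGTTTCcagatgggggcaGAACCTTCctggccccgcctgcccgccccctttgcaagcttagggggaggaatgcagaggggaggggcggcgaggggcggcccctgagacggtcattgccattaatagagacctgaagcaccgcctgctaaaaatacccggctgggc
Dnajb1: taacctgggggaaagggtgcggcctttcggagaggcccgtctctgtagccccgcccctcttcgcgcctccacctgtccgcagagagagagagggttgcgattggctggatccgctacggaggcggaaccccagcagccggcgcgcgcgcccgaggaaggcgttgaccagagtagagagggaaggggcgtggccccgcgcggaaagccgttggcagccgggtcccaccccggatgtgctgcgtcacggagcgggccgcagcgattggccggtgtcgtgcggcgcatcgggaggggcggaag
The Hspa1a and Hspa1b windows were the same at 296 of 300 bases and each held 1 match, at position -104 from the gene start. Their counts share sequence in the transcript as well and are uncertain as a split between the genes. The Hspb1 window held 2 matches, and the Dnajb1 window shown held none in these letters. A match is a description of the letters and not a measured site.

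The extreme values came from 3 wells in 3 different plate rows. The wells, in rows E, F and A, held 194, 135 and 130 counts of Hspa1a and 232, 185 and 107 of Hspa1b, where the highest of the other 99 wells held 52 and 81. Heat shock chaperones took 18.3%, 12.2% and 17.7% of their counts, against a median of 2.49% over all wells and a lowest value of 0.944%. They held 3352, 4458 and 3062 gene counts, above the median well of 2536 and within the range of 1549 to 6750. The part of depth was not tested. The same 3 wells held 43, 34 and 52 counts of Egr1 and 21, 19 and 21 of Jun, 2 immediate early transcription factors, where no other well passed 18 and 15. Sdc4 was low in them, with 2, 2 and 0 counts. Without these wells the Fano factor was 11.7 for Hspa1a, 12.7 for Hspa1b and 5.59 for Dnajb1, all still above 2. It was 5.11 for Hspb1 and 2.36 for Hsp90aa1, and without row E alone it was 38.2 for Hspa1a, 29.9 for Hspa1b and 18.7 for Dnajb1. Over all 102 wells, 12 held more than 5% heat shock chaperones, these 3 included, the 10th percentile was 1.56% and the 90th was 5.08%. Row medians of the list share lay close, from 2.25% to 2.68%.

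Immediate early genes, transcribed within minutes of a stimulus, had 17 of 28 measured members at a Fano factor of 2 or more, against 11.9% of all genes. Egr1 had a count in 96 wells, a median of 4 and a highest value of 52 counts (2270.3 CPM, Fano factor 7.95, or 3.35 without the 3 wells). Jun was found in 75 wells against 95.2 expected (Fano factor 4.52, or 2.92 without the 3 wells), and the RNA-destabilising factor Zfp36 in 73 against 91.3 (4.59). The matricellular gene Ccn1 reached 38 counts in a well (Fano factor 5.46, or 2.30 without row E). Fosb (4.23) and Klf4 (3.65) depended on a row: they were at 1.74 without row A and at 1.96 without row F. Nr4a1, an orphan nuclear receptor, was found in 38 wells against 60.8 expected (Fano factor 4.0, or 2.40 without row F and 2.21 without the 3 wells). Members at or under 1.6 were Atf3, Klf6, Csrnp1, Fosl2, Klf10, Mcl1 and Ier2. Some of these had means under 1 count per well, such as Ier2 at 0.598, where a low Fano factor says little. Over 153 pairs of the 18 members with a mean of at least 1 count, the median correlation between wells (r, described below) was 0.042. It ran from -0.28 to 0.60. As a share of the well the group ran from 0.472% to 4.86% with a median of 2.17%, a much narrower range than that of the heat shock list.

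The neutrophil chemokines Cxcl1 and Cxcl2 were concentrated in few cells. Cxcl1 (ENSMUSG00000029380) was found in 63 wells against 97.3 expected and ran up to 54 counts with a median of 1 (1285 CPM, Fano factor 15.7). Its 10 highest wells held 59.2% of its counts. Row D had the highest level, 1742 CPM, and the lowest row had 461 CPM. Cxcl2 was found in 23 wells against 51.5 expected, with 82.7% of its counts in 10 wells. Its Fano factor of 14.5 was 1.94 without row A, where its level was 1278 CPM against 46.1 CPM in the lowest row. The spread of Cxcl2 therefore rested on 1 row, and that of Cxcl1 did not (11 or more without any row). The NF-kB subunit Nfkb1 was at 3.6, while the inhibitor Nfkbia (1.29) and the subunit Nfkb2 (1.04) were near counting error.

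Among the markers, Myod1 had the highest Fano factor, while Spry1, Vcam1 and Chrdl2 had a higher excess CV, 1.56, 1.51 and 1.30. Myod1 ran from 0 to 41 counts per well with a median of 4 (Fano factor 10.1, excess CV 1.03). Per 10000 gene counts the 25th percentile of wells was 4.80 and the 75th 31.8, with the highest well at 194. Row levels lay between 2084 and 2847 CPM, and the Fano factor was at least 8.26 without each row in turn. Erfe had a Fano factor of 6.32, Vcam1 of 5.06, Spry1 of 4.89 (3.21 without row A), Sdc4 of 3.10 and Chrdl2 of 2.07. Vcam1 levels differed between rows, from 83.3 to 741 CPM, with the highest in row E. By contrast Myf5 (1.66), Calcr (1.61), Pax7 (1.25) and Cd34 (0.941) stayed under 2, though the last 3 had means too low for the count of variable genes. In all, 6 of 10 measured members of the quiescence and stem cell list reached 2, against 11.9% of all genes, and the share of the list in a well ran from 0.181% to 1.78%.

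**Figure D2:**
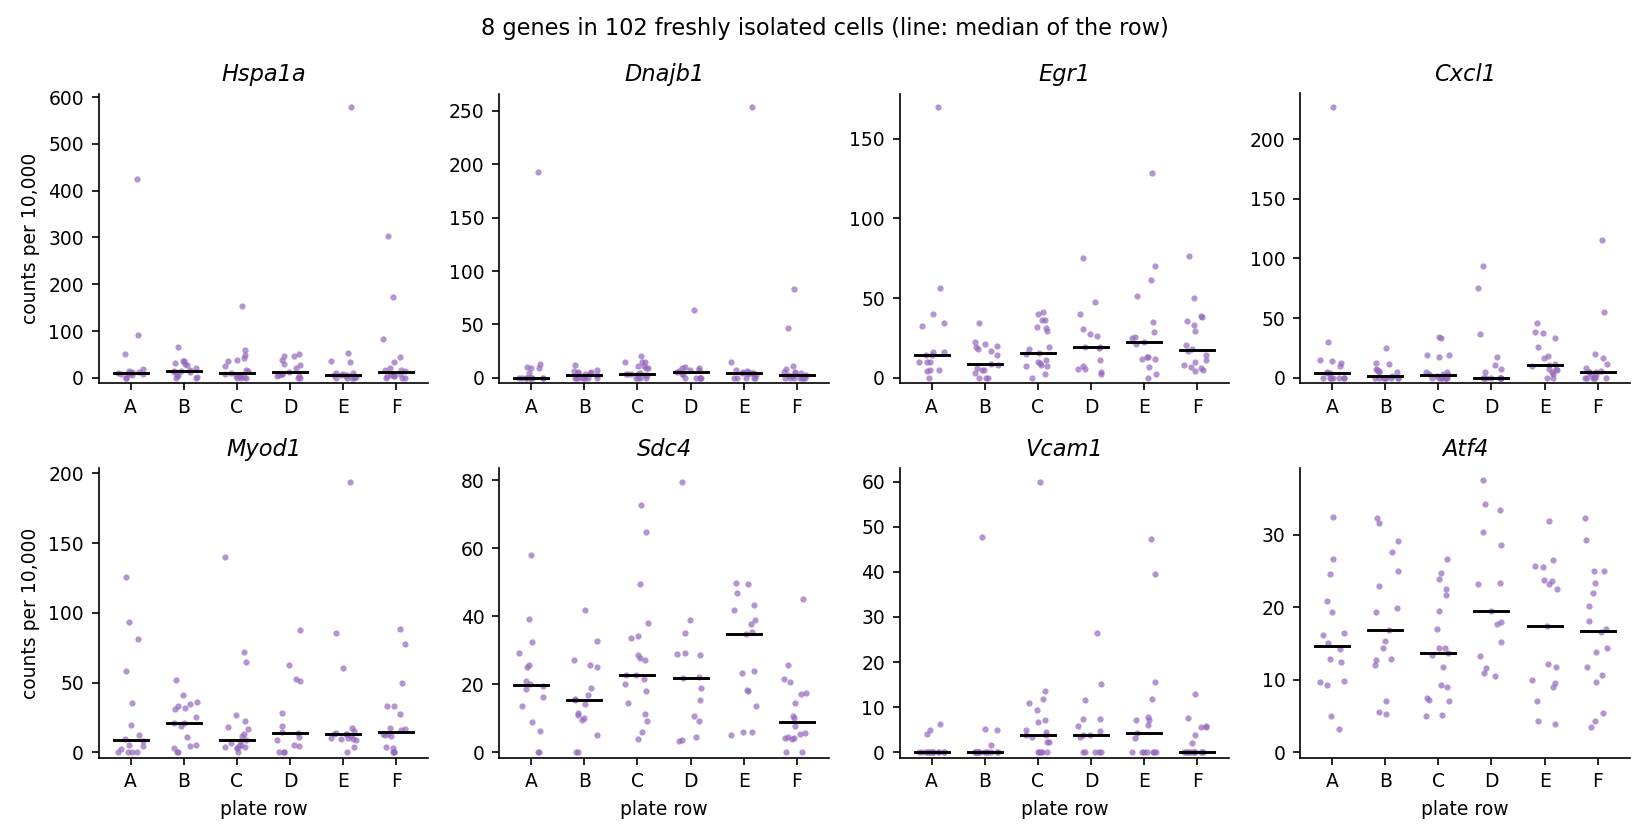
Each point is a freshly isolated cell; y is the counts per 10000 gene counts, x the plate row of 15 to 19 wells, and the line is the row's median. Hspa1a has single wells far above the rest in rows A, E and F, Myod1 is spread within every row, and the steady gene Atf4 stays between 3.27 and 37.5.

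Further variable genes had roles in growth signalling and stress. Errfi1, a feedback inhibitor of the EGF receptor, was at 3140 CPM in 97 wells with up to 44 counts (Fano factor 7.88). The membrane protein Emp1 was found in 84 wells (7.61), the polyamine enzyme Odc1 in 94 (6.66) and the haem-degrading enzyme Hmox1 in 95 (6.79). All 4 kept values of at least 4.74 without any row. The growth factor-binding protein Igfbp5 was found in 46 wells against 69.5 expected (5.15, or 3.18 without row E). Of the matrix genes, Col3a1 was at 4.08 and the protease inhibitor Timp3 at 4.54, which was 1.5 without row C. Acta2 was at 2.86 and 1.69 without row C, the row in which it was highest at 473 CPM. Smooth muscle and collagen list shares varied together over wells (r = 0.442, rho = 0.293, n = 102 wells of 1 library), and the part of other cells in this was not tested. The long non-coding gene Gm26870 (6.54) is reported as uncertain.

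Other abundant genes were close to counting error. Atf4, a transcription factor of the integrated stress response, had a count in all 102 wells at 1753 CPM and a Fano factor of 1.04, with an excess CV of 0.102. The tetraspanin Cd63 was at 1.07, the splicing factor Hnrnpa2b1 at 1.1 and the cytokine-signalling factor Stat3 at 1.16. The pseudogene loci Gm8730 and Rpl5-ps2, which are uncertain, were also among the 6 lowest. None of 36 measured ribosomal protein genes and none of 26 RNA-binding and splicing factors reached 2, against 11.9% of all genes. None of 6 integrated stress response genes did, and 1 of 14 translation factors, which was Eef1a1 at 2.55. The integrated stress response and translation counts lay too near the share of all genes to set those lists apart. Ribosomal proteins took between 1.32% and 3.88% of a well's counts, with a median of 2.15%.

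Genes that vary together were sought among 440 genes with a mean of at least 1 count per well, as Pearson's r of depth-adjusted residuals over the 102 wells. These correlations describe wells that share a library, and depth entered every residual. Of 96580 pairs, 412 (0.427%) had an r of at least 0.5 and none had -0.5 or less. Many were copies of each other: 274 pairs shared a run of 50 bases in their transcripts or overlapped, and 196 of those reached 0.5. All 15 highest pairs were of that kind, such as Gm8355 with Gm15459 (r = 0.98), mt-Co1 with Gm13340 (0.95), Hspa8 with Gm6210 (0.94) and Hspa1a with Hspa1b (0.91). They are uncertain as separate genes. Transcripts of the mitochondrial genome formed a block of their own, with 39 of 45 pairs at 0.5 or more and a median r of 0.60. The mitochondrial share of a well ran from 0.686% to 14.0% with a median of 3.24%. After pairs that share sequence, pseudogene or copy symbols and mitochondrial pairs were set aside, 31 of 52221 pairs (0.0594%) reached 0.5. Among spike-ins, 0 of 105 pairs did when scaled by their own total and 6 of 105 when scaled by gene counts, and 0 of 6600 pairs of a spike-in with a gene.

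The 31 pairs fell into 3 sets. The first held 11 genes: Lamp1, a lysosomal membrane protein, Cfl1, the glycolytic genes Eno1 and Pkm, and Eno1b, which is outside the glycolysis list. The others were the p53 targets Cdkn1a (a cell cycle inhibitor) and Mdm2 (which degrades p53), the chromatin proteins Banf1 and Trim28, the purine enzyme Paics and the nucleic acid-binding Ybx1. Eno1b passed the symbol filter but is uncertain as a gene separate from Eno1, so their pairs may not be separate. Lamp1 and Cfl1 led this set, with r = 0.71 (rho = 0.60, 0.68 to 0.75 without each row, 0.71 without the 3 heat shock wells). Cfl1 with Eno1b (0.59), Pkm (0.57), Banf1 (0.55) and Cdkn1a (0.54) followed. Eef1a1 and Tpt1, a growth-related gene of the same translation list, lay opposite: r was -0.48 for Lamp1 with Eef1a1, -0.42 for Lamp1 with Tpt1 and -0.42 for Cfl1 with Eef1a1. Of the 11 genes, Lamp1 and Cfl1 passed a Fano factor of 2 on their own, at 2.71 and 2.40. The others lay between 1.08 for Banf1 and 1.83 for Pkm, with Cdkn1a at 1.57. Only Mdm2, Trim28 and Banf1 lay under the all-gene median of 1.22. The share of the 11 genes in a well ran from 0.378% to 3.74% (median 1.53%), row medians from 0.928% to 1.81%, and rho with gene counts per well was 0.24. Thinned to 1500 counts, r was 0.47 for Lamp1 with Cfl1 and -0.34 for Lamp1 with Eef1a1, and with spike-in scaling the latter was -0.15. The part of depth and row in this was not tested.

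The same direction was present in cultured cells. Lamp1 and Cfl1 had an r of 0.43 in the high glucose cells, 0.89 with low glucose and 0.85 with galactose, and Lamp1 with Eef1a1 had -0.41, -0.63 and -0.57. Pairs with Eno1 had lower values there: Cfl1 with Eno1 had 0.53 in freshly isolated cells and -0.03, 0.19 and 0.02 in the 3 cultured conditions, and Mdm2 with Eno1 had 0.51 against -0.16, -0.26 and -0.35. Cultured wells were deeper, which alters r, and these differences were not tested.

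**Figure D3:**
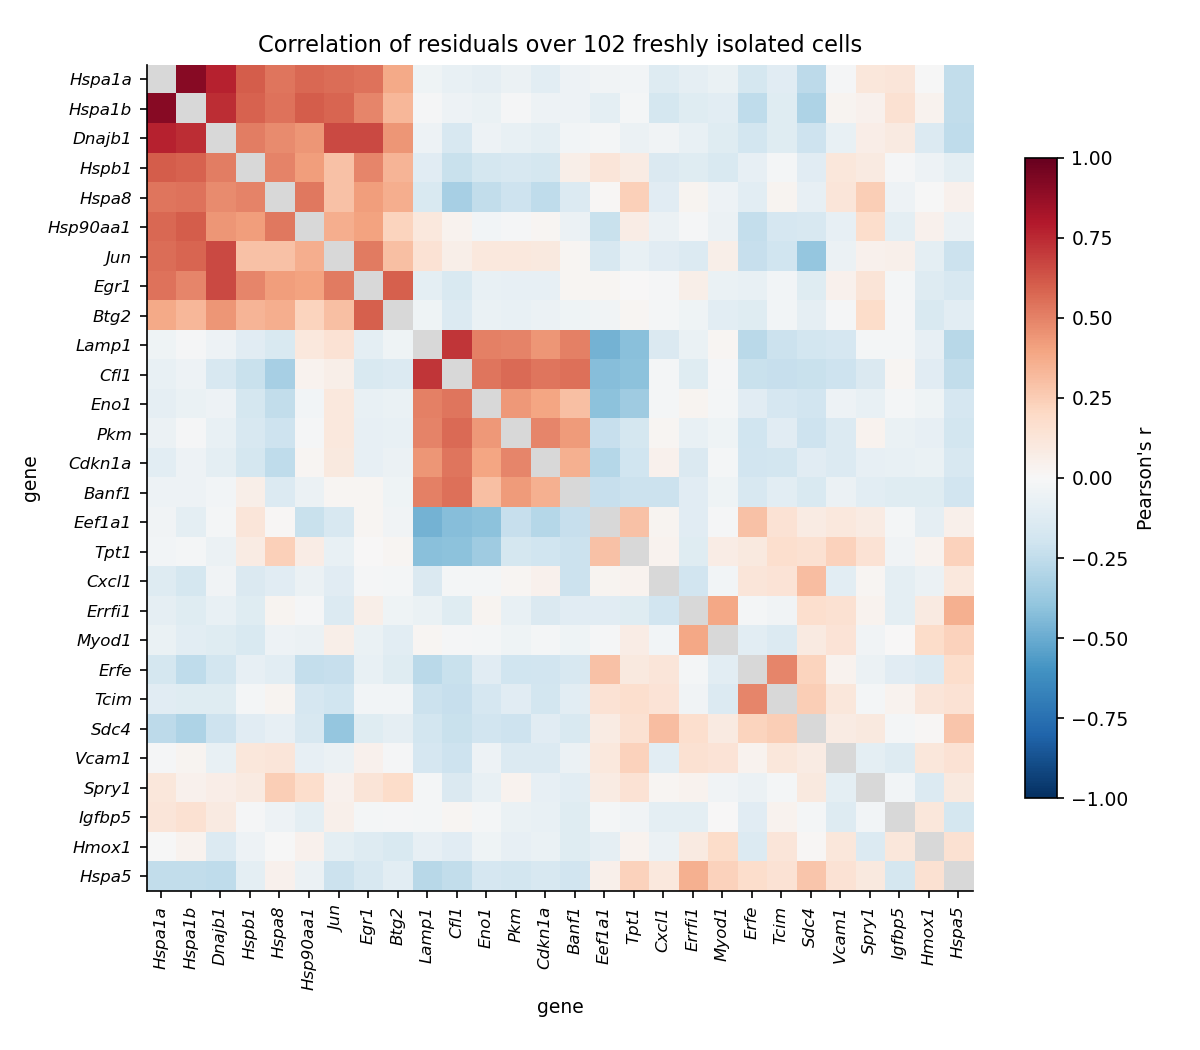
Colours give Pearson's r of depth-adjusted residuals over 102 freshly isolated cells for 28 genes, chosen after their values were seen; the diagonal is grey. A red block of heat shock and immediate early genes, a red block around Lamp1 and Cfl1 and a blue band of these with Eef1a1 and Tpt1 stand out, while the stem cell genes from Myod1 to Igfbp5 are pale.

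The second set joined heat shock and immediate early genes: Hspa1a, Hspa1b, Dnajb1, Hspb1, Hspa8, Hsp90aa1, Egr1, Jun and the antiproliferative gene Btg2. Dnajb1 with Hspa1a had an r of 0.77, Dnajb1 with Egr1 0.66 and Egr1 with Jun 0.52. Ranks gave far less, with rho of 0.33, 0.35 and 0.15. Without the 3 wells named above r was 0.48, 0.29 and 0.06, so the link of Egr1 with Jun rested on those wells, and that of Egr1 with Hspa1a went from 0.54 to 0.11. Btg2 with Egr1 went from 0.60 to 0.40. The 10 chaperone pairs at 0.5 or more that share no sequence lay, without these wells, between 0.21, for Hspb1 with Dnajb1, and 0.49, for Hsp90aa1 with Hspa1b. Hspa1a with Hspa1b, which share sequence, were at 0.80. Beyond these, Eef1a1 with Mir703 (0.60) made up the third set, and Mir703, a short microRNA locus, is uncertain.

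**Figure D4:**
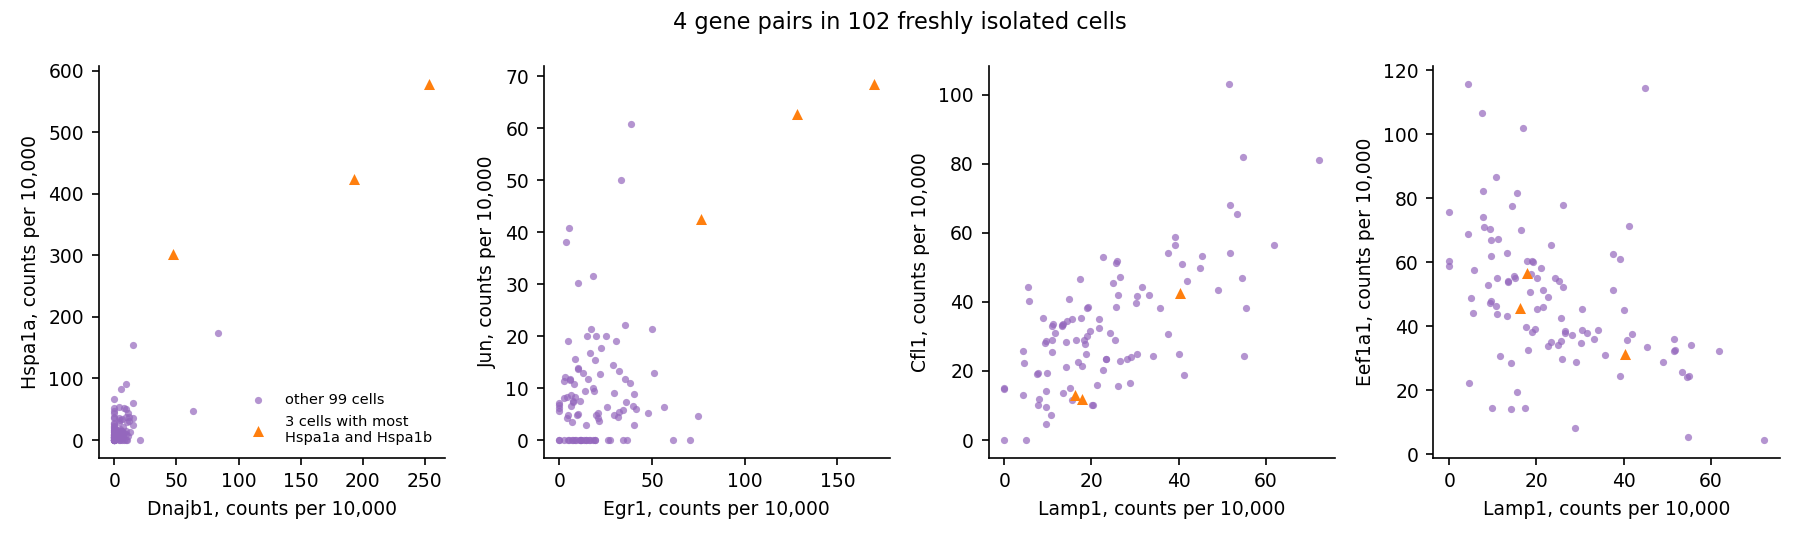
Each point is a freshly isolated cell, with counts per 10000 gene counts of a gene on each axis; orange triangles are the 3 cells with the most Hspa1a and Hspa1b and purple points the other 99. The triangles lie apart from the other cells for Dnajb1 with Hspa1a and at high values for Egr1 with Jun, and lie among the other cells for Lamp1 with Cfl1 and Lamp1 with Eef1a1.

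No pair of stem cell markers reached 0.5. Over 45 pairs of the 10 markers Myod1, Sdc4, Vcam1, Erfe, Chrdl2, Calcr, Pax7, Myf5, Cd34 and Spry1, r lay between -0.21 and 0.31 with a median of -0.0049, and in sparse counts such values carry no finding. The highest partners of the more abundant markers were Malat1 (0.42) and Errfi1 (0.38) for Myod1, the transcriptional regulator Tcim (0.49) and the metal transporter Slc39a14 (0.35) for Erfe, and the transporter Atp13a3 and Slc39a14 (0.37 each) for Sdc4. Slc39a14 was also the highest partner of Cxcl1 (0.43). Sdc4 was lowest against Jun (-0.39) and Hspa1b (-0.31). Across gene lists, the largest r of summed shares was 0.48, for glycolysis with p53 targets (rho = 0.48).

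Levels were set beside those of the cultured cells to place these genes, as ratios of pooled CPM. Of 3613 genes with a mean of at least 50 CPM in each comparison, 401 (11.1%) were at least 2-fold higher in freshly isolated cells than in each of the 3 cultured pools and 427 (11.8%) at least 2-fold lower. The minimum was applied after scaling, so the set of genes changed with it, while gene list counts below keep the unscaled minimum. With TMM scaling 504 of 3672 genes were higher and 299 lower. With spike-in scaling 103 of 5434 were higher and 4066 lower. The median gene counts per spike-in count, 18.3 in freshly isolated cells, were 57.0, 47.7 and 47.8 in high glucose, low glucose and galactose. Those scalings moved every log2 ratio against high glucose by 0.25 and -1.62, against low glucose by 0.15 and -1.36, and against galactose by 0.14 and -1.40. Condition, plate and plate rows cannot be told apart here, and high glucose alone shared the plate.

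Quiescence, immediate early, matrix and secreted genes were often higher. Of 19 measured quiescence and stem cell genes 13 were at least 2-fold higher than in every cultured pool, against 11.1% of all genes, and none lower. With spike-in scaling 7 were higher and 3 lower, where 103 of 5434 genes in all were higher and 4066 lower. Erfe was at 1584 CPM against 57.5 in high glucose, a ratio of 27.6 (95% interval 20.6 to 37.6), and at 1.15 and 0.491 CPM in low glucose and galactose. The small GTPase Arl4d was 19.5-fold higher than in high glucose (14.7 to 26.4), the imprinted non-coding gene Meg3 18.5-fold (12.5 to 28.5) and the C-type lectin Chodl 19.5-fold (12.2 to 32.5). Lists with a like excess over the 11.1% of all genes were immediate early genes (21 of 31 higher, 1 lower), collagens and matrix (8 of 10 higher) and secreted factors (7 of 9 higher). With spike-in scaling these counts were 5 higher and 4 lower, 2 higher and 1 lower, and 4 higher and 1 lower. The secreted matrix protein Dpt, also a fibro-adipogenic marker, was 44.5-fold higher than in high glucose (16.5 to 169). Fibro-adipogenic markers summed to 1091 CPM here against 135, 39.2 and 32.4 CPM in the high glucose, low glucose and galactose pools. Smooth muscle and pericyte markers summed to 637 against 231, 74.96 and 62.9 CPM. Their part in the matrix and secreted lists was not tested.

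Named markers did not all share this pattern. Myod1 was 3.47-fold higher than in high glucose (3.11 to 3.87) and 2.81-fold higher than in galactose (2.57 to 3.07). Sdc4 was 4.80-fold higher than in high glucose and Vcam1 9.59-fold (6.75 to 13.9). Pax7 was 2.12-fold higher than in high glucose (1.33 to 3.35), and Myf5 1.38-fold (1.09 to 1.73) with intervals that held 1 against both plate 2 pools. Cd34 was lower, at 134 CPM against 281 in high glucose, a ratio of 0.477 (0.330 to 0.673), and 0.467 and 0.519 against low glucose and galactose. With spike-in scaling the ratio of Pax7 turned to between 0.683 and 0.851 over the 3 pools and that of Myf5 to between 0.407 and 0.449. On that scale Myod1 was at 1.06 to 1.19, Sdc4 at 1.57 to 2.57, Vcam1 at 3.13 to 3.53 and Cd34 at 0.155 to 0.196. Of 8 measured myogenic factors 3 were higher, against 11.1% of all genes, and none lower. With spike-in scaling 1 was higher and 3 lower. The heat shock list had 10 of 19 members higher, against 11.1% of all genes, and none lower (6 higher and 5 lower with spike-in scaling). With spike-in scaling 103 of 5434 genes in all were higher and 4066 lower. Hspa1a was 12.1-fold higher than in high glucose (10.6 to 14.0) and 38.7-fold than in galactose (33.0 to 45.6). Its level was 1958 CPM in the 99 wells outside the 3 with the most.

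Lower levels were found among nuclear-encoded energy, protein turnover and p53 target genes. Of 30 measured nuclear oxidative phosphorylation genes 12 were at least 2-fold lower than in each cultured pool and none higher. The same held for 12 of 29 proteasome genes, 9 of 68 ribosomal protein genes and 6 of 12 p53 targets, of which 2 were higher, against 11.8% of all genes lower. The ribosomal count lay near that share. With TMM scaling these counts were 7, 9, 6 and 6, and with spike-in scaling 30, 29, 67 and 10. Of all genes, 299 of 3672 were lower with TMM scaling and 4066 of 5434 with spike-in scaling, where most genes were thus lower. Transcripts of the mitochondrial genome went the other way. Of 12 measured, 6 were at least 2-fold higher than in each cultured pool, against 11.1% of all genes, and none lower. With TMM scaling 7 were higher, and with spike-in scaling 0 were higher and 0 lower. Plin2, a lipid droplet coat protein, was at 31.7 CPM against 353 in high glucose, a ratio of 0.0898 (0.0407 to 0.173). The p53-induced Phlda3 was at 49.3 against 433 CPM, the apoptosis effector Bax at 35.2 against 217 and the lysosomal protease Ctsd at 45.8 against 365. Lower predicted loci such as Gm22133 and Gm15590 are uncertain.

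Variation was compared at equal depth, with every well thinned to 1500 counts, which left out 2 high glucose wells. Among 342 genes measured in both, 41 (12%) of the freshly isolated set reached a Fano factor of 2, as did 45 (13.2%) of the high glucose set, with 29 in common. Against low glucose 36 of 338 genes (10.7%) did in freshly isolated cells and 13 (3.85%) in low glucose, and against galactose 34 of 337 (10.1%) and 12 (3.56%). The number of variable genes was near that of high glucose, on the same plate, and above that of the plate 2 conditions. At 1000 counts it was 33 against 26 in high glucose, so the order of these 2 turned with the depth. Single genes differed more: Hspa1a was at 29.4 against 7.25 in high glucose, Myod1 at 7.07 against 1.82, Emp1 at 5.70 against 1.44 and Jun at 3.47 against 1.19. Actb was the other way, at 1.39 against 2.08. Egr1 (5.26 against 1.27), Errfi1 (5.14 against 1.21), Cxcl1 (8.51 against 1.63) and Dnajb1 (14.8 against 1.01) had thinned means under 0.5 in high glucose and were not among the 342 genes. The heat shock list as a whole was at 34.1 against 8.95, and mitochondrial transcripts at 15.7 against 24.3. The freshly isolated values include the 3 wells with the most Hspa1a and Hspa1b. Without thinning, leaving these wells out took the Fano factor of Hspa1a from 58.5 to 11.7 and of Dnajb1 from 30.7 to 5.59. Egr1 went from 7.95 to 3.35 and Jun from 4.52 to 2.92. Thinned values without these wells were not computed. With 1 library per condition none of these differences has a replicate check.

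**Figure D5:**
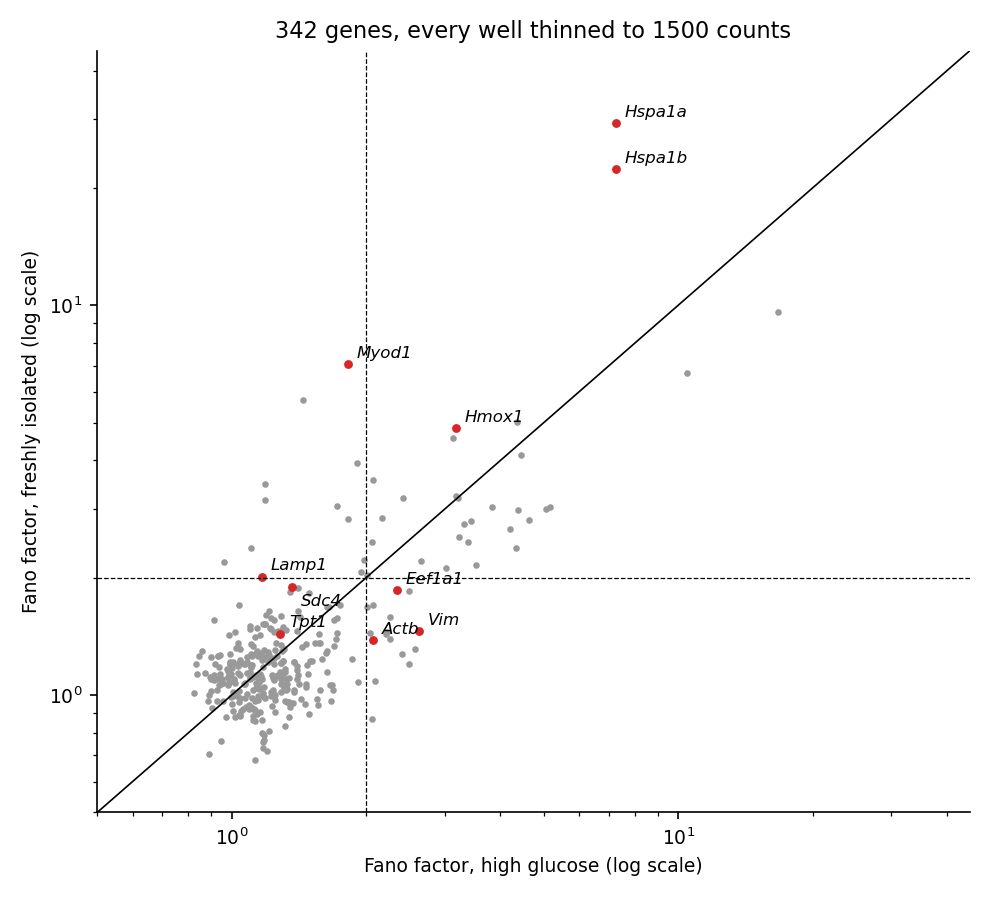
Each point is 1 of 342 genes, with the Fano factor in high glucose on x and in freshly isolated cells on y, both on log scales, after thinning every well to 1500 counts; the solid line marks equal values and dashed lines mark 2. Hspa1a, Hspa1b and Myod1 lie above the line, at 29.4, 22.3 and 7.07, and Actb and Vim lie below it.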

How the data were processed

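RNA of single cells was counted per gene and well. The deposited tables hold raw counts with no normalization, per the values: whole numbers with totals that differ between wells. Conditions came from the deposited well sheet. UMI collapsing, aligner, build and annotation are not stated in the labels, and edgeR is named in the submitters' processing notes without a version or role. Wells needed 500 gene counts and 250 genes, and all 102 passed. No doublet caller was run. Gene identifiers received symbols from a reference table of mouse gene names (21132 of 21216). ERCC counts were left out of totals.

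A gene's expected count in a well was its share of the pooled counts times the well's total. The Fano factor is Pearson's chi-square over its degrees of freedom, called at 2 for a mean of at least 0.5 counts. Residuals for r were divided by the square root of a negative binomial variance (theta 100) and clipped at the square root of the number of wells, at a mean of at least 1 count. Steps were tested on simulated data. Python 3.11.15, numpy 2.4.6, scipy 1.17.1 and edgeR 4.0.16 (TMM) were used.

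The cells, the 31 gene lists and the rules were chosen with earlier results of these data known. The genes named were the labelled markers, the 20 highest by CPM, the 20 highest by Fano factor and 10 highest by excess CV, the 6 steadiest, the extreme pairs, the leading members of each list, and the 10 higher and 10 lower than every cultured pool. Some genes the rule named are not reported here, and others named as examples were picked after their values were seen.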

Additional observations from a re-analysis of the deposited data

How the results depend on the processing

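No paired analysis was possible because each condition is 1 library and the labels give no replicate numbers. The number of genes with a Fano factor of at least 2 was 126. It was 122 to 140 without each plate row, 66 thinned to 1500 counts, where fewer genes reached the mean, and 259 at a limit of 1.5. The number of gene pairs at 0.5 was 412, or 399 to 426 without each row. It was 710 scaled by spike-ins, 132 thinned, 228 at a mean of at least 2 counts, and 216 among pairs that share no sequence (added after seeing the data). The 20 leading genes held 13.9% of counts, 13.8% to 14.1% without each row, and 12.1% with mitochondrial genes left out. The median heat shock share was 2.42% to 2.55% without each row. Against cultured cells 401 genes were higher and 427 lower, or 382 to 416 and 428 to 455 without each row. These were 103 and 4066 of 5434 genes with spike-in scaling, 931 and 1568 of 8360 at 10 CPM, and 2718 and 9576 of 20787 with no minimum. Thinned genes at a Fano factor of 2 were 41 in freshly isolated and 45 in high glucose cells. They were 103 and 235 with no thinning, where depths differ, 60 and 62 at 2000 counts, and 33 and 26 at 1000 counts, where the order turned. Leaving out the 3 heat shock wells, an alternative chosen after seeing the data, took the r of Egr1 with Jun to 0.06 and the Fano factor of Dnajb1 to 5.59. With spike-in scaling the ratios of Pax7 and Myf5 to the cultured pools turned below 1, and those of Myod1 lay between 1.06 and 1.19. Values of r were recomputed for Dnajb1 with Hspa1a, Egr1 with Jun, Lamp1 with Cfl1 and Lamp1 with Eef1a1. Each kept its sign, though some moved in size. The median well of 2536 counts limits statements on genes under 0.5 counts per well.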

Other observations

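The endoplasmic reticulum chaperone Hspa5 had an r of -0.25 with Dnajb1 and Hspa1b, -0.24 with Hspa1a, -0.10 with Hspb1, -0.06 with Hsp90aa1 and 0.04 with Hspa8. The sums of the 2 chaperone lists had an r of -0.18 and a rho of -0.03. These values were not recomputed without the 3 heat shock wells. Hspa5 had a count in all 102 wells, a Fano factor of 5.46 and an excess CV of 0.594. Its row levels ran from 2551 to 5253 CPM with the highest in row D. The list of endoplasmic reticulum chaperones took 0.125% to 1.85% of a well's counts, with row medians from 0.390% to 0.827%. Hspa5 was the 1 of its 8 measured members that reached a Fano factor of 2, near the 11.9% of all genes, and the median over the 8 was 1.17. Histone acetylation genes, the subject of the series' title, had few counts: none of 4 measured members reached 2, too few to set against the 11.9% of all genes, with Brd2 at 355 CPM (Fano factor 1.13) and the deacetylase Hdac2 at 264 CPM (1.26). The list took 0.0451% to 0.514% of a well's counts, with a Fano factor of 0.948 for the sum.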
